A study of Sus scrofa with 15 samples.

Results

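The interferon-stimulated genes are a module of 41 genes, named by symbol, that covers effectors against viruses, the ISG15 system, sensors of viral RNA, transcription factors of the pathway, 4 genes of the ADP-ribosylation group around PARP14, and a set of guanylate-binding, nuclear body and RING genes. Of the 41 symbols, 37 were rows of the deposited table of 29886 genes. The other 4 (*IFIT5*, *SAMD9*, *SP100* and *RNF213*) had no row under these symbols. The members were chosen by name and not by the values of these libraries, although earlier results of the same data were known.

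RNA came from natural killer (NK) cells of 5 pigs aged 6 months, for which the labels list no treatment. NK cells, gated as CD3- CD172a- lymphocytes, were purified by FACS as 3 populations from each animal: CD8αhigh cells of the blood (conventional NK cells, cNK cells), CD8αhigh cells of the liver, and CD8αdim cells of the liver, the liver-resident NK cells (lrNK cells). Each pig gave 1 library per population, 15 in all, and the animal is the replicate (n = 5 per population). Libraries were sequenced from the 3′ end of polyadenylated RNA, so a value counts transcripts and was not compared between genes. Levels are given as CPM, the usual per-library scaling of counts with TMM-adjusted totals, and whenever 5 values follow each other they are those of pigs 1 to 5 in that order. Gene positions refer to the Sscrofa11.1 assembly.

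Type I and type III interferons bind their receptors and activate JAK1 and TYK2, after which transcription factors such as STAT2 and IRF9 enter the nucleus and switch on a broad set of genes. The products of these genes degrade viral RNA, block translation or trap virus particles, and others, such as USP18, dampen the response again. PARP14 and PARP9 are ADP-ribosyltransferase family members, DTX3L is a ubiquitin ligase that works as a heterodimer with PARP9, and the 3 genes lie together in the genome and are known as interferon-responsive. Interferon-gamma induces an overlapping set, to which the guanylate-binding proteins belong.

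Depth was lowest in the lrNK libraries, with 2003499 to 3776823 counts (median 2407859), against 2874092 to 3823973 (median 3749615) in blood and 2886686 to 5680221 (median 3877028) in liver CD8αhigh libraries. All 12 NK cell markers looked at were present, and *CD8A* was lower in lrNK cells than in blood (log2 fold change -3.43, edgeR adjusted p = 1.24e-08), the marker by which they were gated. Markers of B cells were not evenly spread. The summed level of 5 of them (*MS4A1*, *CD79A*, *CD79B*, *PAX5* and *JCHAIN*) was 419 to 966 CPM in lrNK libraries, 19.8 to 154 CPM in blood and 4.06 to 48.3 CPM in liver CD8αhigh libraries, and 4 of 4 tested were higher in lrNK cells in both comparisons, while *CD79A* was at 0 in all libraries. The pDC list gave 58.0 to 148 CPM in lrNK libraries against 18.4 to 38.3 CPM in blood, carried by *TCF4*, *SPIB* and *TLR7*, which B cells also express, whereas *IL3RA*, *FLT3* and *TLR9* were at or near 0. Myeloid markers summed to at most 25.6 CPM, with *CSF1R*, *CD163* and *MARCO* at 0 and *LYZ*, the only one tested, higher in lrNK than in liver CD8αhigh cells (edgeR adjusted p = 0.0272, or 0.0512 with the pig as a block), and hepatocyte markers to at most 8.14 CPM. T-cell markers summed to 110 to 593 CPM in lrNK and 637 to 1200 CPM in blood libraries, nearly all of it *CD3G*, with means of 289 and 865 CPM. *CD3D* had 8.43 and 3.78 CPM and did not pass the test (edgeR adjusted p = 0.188), and *CD4* and *CD5* were at 0. *CD3E* had 2.12 and 10.2 CPM and did not pass against blood (edgeR adjusted p = 0.301). Against liver CD8αhigh cells, at 9.03 CPM, *CD3E* was lower in lrNK cells only with the pig as a block (edgeR adjusted p = 0.0418, or 0.381 without it). Blood of pig 4 stood apart by 837 counts of the haemoglobin gene *HBB*, where the other blood libraries had at most 22. In bulk RNA, fewer cells of a type cannot be told apart from less RNA per cell.

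Transcripts of most members were present in every population. With more than 3 counts in at least 1 library taken as detected, 34 of the 37 members were detected in blood CD8αhigh, 33 in liver CD8αhigh and 35 in lrNK cells. *OAS1* and *BST2* had 0 counts in all 15 libraries, a count that allows at most 3 reads per library and, with reads taken only from the 3′ end, says nothing of transcripts that end elsewhere. *OASL* had counts in 1 library only (lrNK cells of pig 2, 4.80 CPM). Of the 37 members, 32 passed the filter on low counts and were tested, and *MX2*, *OAS1*, *OASL*, *BST2* and *IRF7* were not. *MX2* ranged from 0 to 9.26 CPM in lrNK cells and was at 0 in all 5 liver CD8αhigh libraries, and DESeq2, run without that filter, called it higher in lrNK than in liver CD8αhigh cells (adjusted p = 0.0124). *IRF7* reached at most 21 counts in any library.

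The members moved largely in 1 direction, towards higher levels in lrNK cells. Against blood CD8αhigh cells, 19 of the 32 tested members rose and 0 fell (edgeR, Benjamini-Hochberg adjusted p under 0.05), where 8.62% of all 10939 tested genes rose and 9.60% fell. The median log2 fold change was 1.29 over the members and 0.00595 over all genes. For 14 members all 5 lrNK libraries lay above all 5 blood libraries, a separation seen in 6.18% of all genes. In each of the 5 pigs 17 members were higher in lrNK cells, a count for which the share of all genes was not computed. Against liver CD8αhigh cells, 18 members rose and 0 fell, with 6.96% of all genes rising and 7.68% falling. Here the median was 1.27 over the members and 0.0157 over all genes, and 12 members had non-overlapping libraries (5.18% of all genes). Both comparisons use the same lrNK libraries, so they do not count as separate evidence. A gene could pass the filter on low counts through the lrNK libraries alone, and the counts over tested members are a description. The 18 members that rose against liver CD8αhigh cells were all among the 19 that rose against blood, and *ADAR* was the exception, with 0.33 ± 0.21 and an edgeR adjusted p of 0.352 against liver CD8αhigh cells.

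With the pig as a block, 19 members rose against blood and 17 against liver CD8αhigh cells, and *GBP1* then fell against liver CD8αhigh cells (log2 fold change -0.49, edgeR adjusted p = 0.0317 with the block). In DESeq2 with the block 21 members rose against blood, *DHX58* and *PARP9* among them, and 17 against liver CD8αhigh cells. Calls over all genes, in either direction, also grew with the block. They went from 1993 to 2120 against blood and from 1601 to 1716 against liver CD8αhigh cells in edgeR. Blocked DESeq2 called 2672 and 2181 genes. Without the lrNK library of pig 2, 18 and 17 members rose, with 1910 and 1513 of all genes called in either direction. Without that of pig 4, 17 and 17 members rose, with 1869 and 1499 of all genes called.

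**Figure D1:**
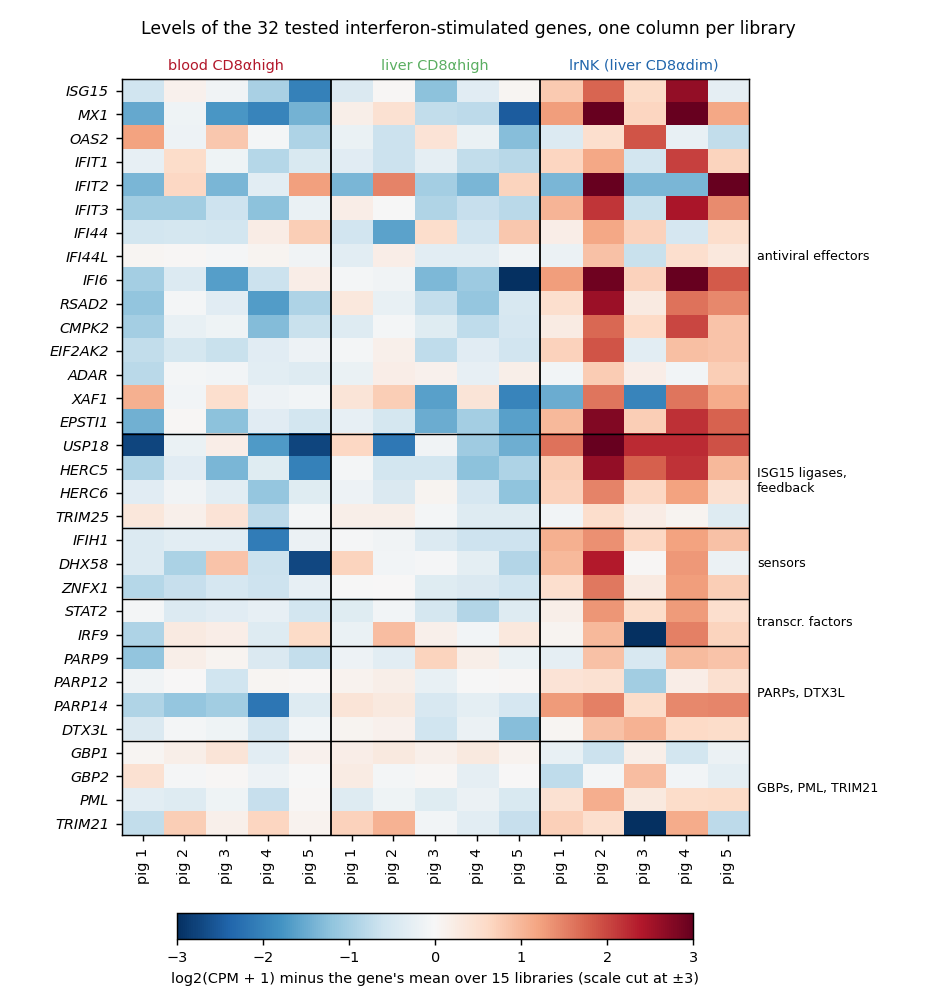
Heatmap of the 32 tested members (rows, ordered by role) in the 15 libraries (columns, grouped by population and ordered by pig). Colour is log2(CPM + 1) minus the mean of that gene over all libraries, cut at ±3. The lrNK columns of pigs 2 and 4 are the darkest red, *TRIM25* and *GBP1* are pale throughout, and the blood and liver CD8αhigh columns look alike for most rows.

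The largest group, 21 antiviral effectors, is the classical core of the response. The deposited counts cover 19 of them, of which 15 were tested, and 10 rose against blood and 9 against liver CD8αhigh cells. The median log2 fold changes were 1.87 and 1.67, and all 15 had positive values in both comparisons. *EPSTI1* (chr11:24116991-24216219), an epithelial-stromal interaction gene with antiviral activity, was measured at 27.4, 77.8, 31.5, 59.3 and 51.2 CPM in blood CD8αhigh, 63.2, 52.2, 26.5, 36.5 and 23.9 CPM in liver CD8αhigh and 149, 521, 127, 350 and 262 CPM in lrNK cells. Every lrNK library was above every library of the other populations. The log2 fold change (± SE) was 2.51 ± 0.38 against blood CD8αhigh cells (edgeR adjusted p = 5.18e-05) and 2.81 ± 0.38 against liver CD8αhigh cells (adjusted p = 2.04e-05). *MX1* (chr13:204843049-204868927), a dynamin-like GTPase that acts on incoming viral nucleocapsids, gave 10.3, 28.8, 8.68, 7.23 and 11.3 CPM in blood CD8αhigh, 35.9, 43.8, 18.4, 17.8 and 4.78 CPM in liver CD8αhigh and 76.4, 495, 49.7, 295 and 72.1 CPM in lrNK cells. The lrNK libraries were again above all others, with those of pigs 2 and 4 far above the remaining lrNK libraries. Its log2 fold change was the largest among the members against blood, 3.88 ± 0.64 against blood CD8αhigh cells (edgeR adjusted p = 0.000144) and 3.04 ± 0.61 against liver CD8αhigh cells (adjusted p = 0.00119).

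*CMPK2* (chr3:128903395-128917873) and *RSAD2* (chr3:128880853-128897809) are neighbours in the genome and act in 1 pathway, with CMPK2 supplying the CTP that the RSAD2 product viperin turns into a chain terminator of viral RNA synthesis. *CMPK2* was at 19.5, 34.5, 36.6, 15.9 and 24.9 CPM in blood CD8αhigh, 30.4, 38.5, 31.2, 23.4 and 28.2 CPM in liver CD8αhigh and 48.2, 134, 61.4, 164 and 73.7 CPM in lrNK cells. No lrNK library overlapped the other populations. On the log2 scale it was higher by 1.87 ± 0.32 against blood CD8αhigh cells (edgeR adjusted p = 0.000206) and 1.67 ± 0.31 against liver CD8αhigh cells (adjusted p = 0.000704). *RSAD2* stood at 16.5, 37.0, 30.4, 11.6 and 20.1 CPM in blood CD8αhigh, 48.7, 33.2, 23.4, 16.7 and 27.5 CPM in liver CD8αhigh and 55.2, 237, 47.2, 123 and 108 CPM in lrNK cells. All lrNK libraries were above all blood libraries, while that of pig 3 lay below the highest liver CD8αhigh library. This gave 2.29 ± 0.41 against blood CD8αhigh cells (edgeR adjusted p = 0.00032) and 1.94 ± 0.40 against liver CD8αhigh cells (adjusted p = 0.00161) on the log2 scale. *IFI6* (chr6:84852782-84858072), a small membrane protein of the endoplasmic reticulum and mitochondria, was found at 22.5, 34.8, 14.1, 29.3 and 53.9 CPM in blood CD8αhigh, 44.5, 43.2, 17.8, 21.4 and 2.87 CPM in liver CD8αhigh and 113, 358, 75.5, 396 and 168 CPM in lrNK cells. The lrNK libraries did not overlap the others, and pigs 2 and 4 were highest. The difference on the log2 scale was 2.85 ± 0.54 against blood CD8αhigh cells (edgeR adjusted p = 0.00058) and 3.11 ± 0.54 against liver CD8αhigh cells (adjusted p = 0.000323).

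*IFIT3* (chr14:101214730-101225169), a partner of IFIT1 in binding foreign RNA, had 13.3, 13.4, 18.2, 11.6 and 24.9 CPM in blood CD8αhigh, 33.1, 28.5, 14.8, 17.2 and 16.0 CPM in liver CD8αhigh and 59.0, 129, 17.5, 162 and 78.6 CPM in lrNK cells. The lrNK library of pig 3 fell within the range of blood and liver CD8αhigh libraries, and the other 4 were above it. Fold changes on the log2 scale were 2.46 ± 0.42 against blood CD8αhigh cells (edgeR adjusted p = 0.000246) and 2.03 ± 0.41 against liver CD8αhigh cells (adjusted p = 0.00145). *EIF2AK2* (chr3:103041029-103096741) encodes PKR, the kinase that stops translation on double-stranded RNA, and gave 80.2, 93.7, 84.7, 107 and 122 CPM in blood CD8αhigh, 130, 151, 78.9, 106 and 90.8 CPM in liver CD8αhigh and 218, 504, 108, 252 and 247 CPM in lrNK cells. Again the lrNK library of pig 3 overlapped with both other populations. The log2 fold change was 1.45 ± 0.28 against blood CD8αhigh cells (edgeR adjusted p = 0.000938) and 1.26 ± 0.28 against liver CD8αhigh cells (adjusted p = 0.00357). The other 3 effectors that rose against blood were *IFIT1* (1.20 ± 0.35, edgeR adjusted p = 0.0195), *ISG15* (2.22 ± 0.62, adjusted p = 0.0153) and *ADAR* (0.67 ± 0.21, adjusted p = 0.0289). Without pig 4, *IFIT1* (0.62, edgeR adjusted p = 0.242) and *ISG15* (adjusted p = 0.197) did not pass against blood, nor did they without the lrNK library of pig 4 alone (0.78, edgeR adjusted p = 0.101, for *IFIT1* and adjusted p = 0.0952 for *ISG15*). *IFIT1* was also lost without pig 1 (adjusted p = 0.0527), pig 5 (0.0634) or blood of pig 4 (0.0584), and *ADAR* without pig 1 (0.0506), pig 2 (0.099), pig 5 (0.171), the lrNK library of pig 2 (0.0884) or blood of pig 4 (0.0585), or in a fit of the 2 populations alone (0.0676). With the pig as a block, *ISG15* did not pass against liver CD8αhigh cells (edgeR adjusted p = 0.104), nor did it without pig 1, 2, 3 or 4 or the lrNK library of pig 2 or 4 (adjusted p = 0.0592 to 0.291). *ADAR*, an editor of double-stranded RNA, shares 317 bases with *CHRNB2*, whose counts were 93.1 to 100% of those of *ADAR* in each library, so these 2 genes cannot be told apart in the table. *ISG15* shares 69 bases with an uncharacterized gene whose counts came to 42.8% of its own. *IFIT1*, *IFIT2* and *IFIT3* lie within the span of *LIPA*, which did not pass the test itself (log2 fold change 0.25, edgeR adjusted p = 0.594 against blood).

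Effectors that did not pass the test were *OAS2* (0.17 ± 0.52 against blood), *IFIT2* (2.62 ± 1.49), *IFI44* (0.74 ± 0.90), *IFI44L* (0.25 ± 0.22) and *XAF1* (0.59 ± 0.99), with edgeR adjusted p-values from 0.257 to 0.88. *IFI44L* was well measured, at 133 to 151 CPM in blood and 89.1 to 263 CPM in lrNK cells, and its groups overlapped. Against liver CD8αhigh cells *IFI44L* had 0.43 ± 0.22 (edgeR adjusted p = 0.231). It passed there without the lrNK library of pig 3 (0.59, edgeR adjusted p = 0.0282). By contrast *IFIT2*, *IFI44* and *XAF1* had few counts, and *IFIT2* was at 0 in 3 of 5 lrNK libraries.

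Some genes of the ISG15 system rose beside the effectors. ISG15 is a ubiquitin-like modifier that HERC5 attaches to proteins and that the protease USP18 removes, while USP18 also blocks the interferon receptor. Of the 4 members in this group 3 rose in both comparisons. Outside the module, *UBA7* of the same system did not pass against blood (0.41 ± 0.36, edgeR adjusted p = 0.51). Its means were 20.0 CPM in lrNK, 15.1 CPM in blood and 9.26 CPM in liver CD8αhigh cells. *UBE2L6*, also of this system, was at 0 in blood and lrNK cells. *USP18* (chr5:70183321-70227990) was low outside lrNK cells, with 0, 4.93, 6.78, 1.08 and 0 CPM in blood CD8αhigh, 9.32, 0.527, 5.30, 2.24 and 1.43 CPM in liver CD8αhigh and 19.9, 68.6, 30.7, 30.9 and 24.3 CPM in lrNK cells. Each lrNK library exceeded all others, and that of pig 2 was the highest by more than the range of the remaining 4. Its log2 fold change was 3.71 ± 0.82 against blood CD8αhigh cells (edgeR adjusted p = 0.0026) and 3.24 ± 0.80 against liver CD8αhigh cells (adjusted p = 0.00729), and the call against liver CD8αhigh cells was lost without pig 2 (adjusted p = 0.0775). *HERC5* (chr8:130532256-130591158) showed 4.07, 6.58, 2.71, 6.50 and 1.36 CPM in blood CD8αhigh, 8.29, 5.54, 5.58, 3.10 and 4.06 CPM in liver CD8αhigh and 14.9, 58.6, 32.1, 42.4 and 17.8 CPM in lrNK cells. Its lrNK libraries were all above the rest. The change was 2.95 ± 0.48 against blood CD8αhigh cells (edgeR adjusted p = 0.00014) and 2.65 ± 0.47 against liver CD8αhigh cells (adjusted p = 0.000415) on the log2 scale. *HERC6* (chr8:130594941-130665591), the relative that carries ISG15 ligase activity in mice, was measured at 68.8, 81.1, 70.0, 38.7 and 67.9 CPM in blood CD8αhigh, 79.1, 65.1, 93.7, 61.5 and 37.7 CPM in liver CD8αhigh and 142, 249, 136, 206 and 122 CPM in lrNK cells. Here too the lrNK libraries did not overlap. The log2 fold change was 1.38 ± 0.25 against blood CD8αhigh cells (edgeR adjusted p = 0.000435) and 1.34 ± 0.25 against liver CD8αhigh cells (adjusted p = 0.000679). *TRIM25*, a ubiquitin ligase of the RIG-I pathway, had 0.03 ± 0.22 against blood (edgeR adjusted p = 0.957), a value whose sign turned when pig 2 or pig 4 was left out.

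Among the sensors, *IFIH1* (chr15:68930998-68985145), which encodes MDA5, the detector of long double-stranded RNA, was at 76.2, 82.0, 80.9, 22.8 and 89.4 CPM in blood CD8αhigh, 99.5, 94.7, 76.4, 65.3 and 65.4 CPM in liver CD8αhigh and 212, 264, 157, 234 and 187 CPM in lrNK cells. All lrNK libraries lay above all others, and blood of pig 4, the library with the most *HBB* counts, was far below the other blood libraries. Its log2 fold change was 1.58 ± 0.27 against blood CD8αhigh cells (edgeR adjusted p = 0.000178) and 1.40 ± 0.26 against liver CD8αhigh cells (adjusted p = 0.000721). *ZNFX1* (chr17:50925789-50958722), a helicase-like sensor of viral RNA at mitochondria, gave 87.3, 98.1, 112, 102 and 134 CPM in blood CD8αhigh, 158, 161, 122, 117 and 104 CPM in liver CD8αhigh and 228, 476, 192, 378 and 265 CPM in lrNK cells. The lrNK libraries did not overlap those of either other population. Values of 1.53 ± 0.22 against blood CD8αhigh cells (edgeR adjusted p = 3.57e-05) and 1.22 ± 0.22 against liver CD8αhigh cells (adjusted p = 0.000465) were obtained on the log2 scale. *DHX58*, which encodes LGP2, a regulator of MDA5, had 1.75 ± 0.73 against blood and did not pass the test (edgeR adjusted p = 0.107). It did pass in the blocked DESeq2 fit (2.08, adjusted p = 0.016) and in edgeR without pig 3 (2.71, adjusted p = 0.0196). Of the transcription factors, *STAT2* (chr5:21733030-21748960) was at 92.4, 72.1, 76.2, 81.3 and 64.8 CPM in blood CD8αhigh, 74.6, 90.7, 66.6, 51.7 and 73.1 CPM in liver CD8αhigh and 108, 244, 142, 236 and 137 CPM in lrNK cells. Every lrNK library was above every other library. On the log2 scale it was higher by 1.16 ± 0.22 against blood CD8αhigh cells (edgeR adjusted p = 0.000624) and 1.28 ± 0.22 against liver CD8αhigh cells (adjusted p = 0.000287). *IRF9*, its DNA-binding partner, gave 0.59 ± 0.58 (edgeR adjusted p = 0.55 against blood), with 0 CPM in the lrNK library of pig 3 and up to 49.7 CPM in that of pig 4.

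The last group was mixed. *PML* (chr7:59405044-59450155), the scaffold of nuclear bodies, was found at 87.0, 82.5, 98.5, 66.8 and 110 CPM in blood CD8αhigh, 81.8, 98.6, 84.2, 95.5 and 78.3 CPM in liver CD8αhigh and 149, 232, 132, 158 and 161 CPM in lrNK cells. No lrNK library overlapped the others. On the log2 scale it was higher by 0.90 ± 0.18 against blood CD8αhigh cells (edgeR adjusted p = 0.000971) and 0.92 ± 0.18 against liver CD8αhigh cells (adjusted p = 0.000884). *GBP1*, a guanylate-binding protein known as a target of interferon-gamma, had values of the opposite sign, with means of 1335 ± 304 CPM (SD, n = 5) in lrNK cells, 1832 ± 113 in liver CD8αhigh and 1700 ± 285 in blood CD8αhigh cells, but did not pass the test (-0.35 ± 0.16, edgeR adjusted p = 0.142 against blood and -0.46 ± 0.16, adjusted p = 0.0585 against liver CD8αhigh). It did pass against liver CD8αhigh cells in DESeq2 (-0.44, adjusted p = 0.0398), in the blocked fits of edgeR (-0.49, adjusted p = 0.0317) and DESeq2 (-0.47, adjusted p = 0.0119), and in edgeR without pig 3, its lrNK library alone or blood of pig 4 (adjusted p = 0.0121, 0.00656 and 0.0352), and against blood without the lrNK library of pig 3 (adjusted p = 0.0251). Its level was below that of blood in all 5 pigs. *GBP2* (-0.01 ± 0.24 against blood) and *TRIM21* (-0.02 ± 0.66), an antibody receptor with ubiquitin ligase activity, had edgeR adjusted p-values of 0.98 and 0.992, and both signs turned under other settings.

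**Figure D2:**
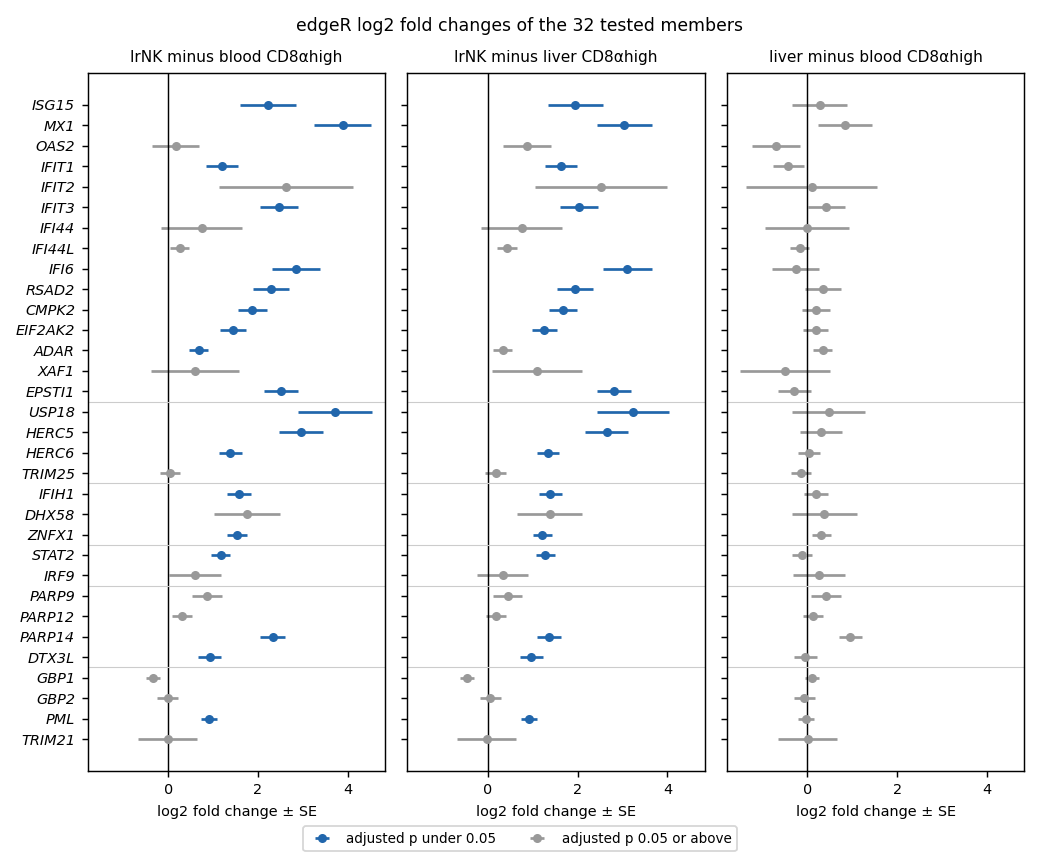
Log2 fold changes (points) with standard errors (bars) from edgeR for the 32 tested members, ordered by role, in the 3 comparisons, with blue for an adjusted p under 0.05 and grey for the rest. Against blood 19 members are blue, against liver CD8αhigh cells 18, and between both CD8αhigh populations 0, where *PARP14* lies farthest to the right at 0.96.

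PARP14 and its partners lie in 1 stretch of chromosome 13 (Sscrofa11.1): *PARP14* at chr13:137809499-137865383, then *DTX3L* at chr13:137950266-137961381 and *PARP9* at chr13:137960987-138000862. *DTX3L* lies 84882 bases from *PARP14* and overlaps *PARP9* by 395 bases. *PARP14* was measured at 151, 127, 136, 62.1 and 218 CPM in blood CD8αhigh, 370, 345, 204, 229 and 200 CPM in liver CD8αhigh and 690, 814, 415, 764 and 784 CPM in lrNK cells. The lrNK libraries were above all others, 4 of them between 690 and 814 CPM, and blood of pig 4 was the lowest of all. Its log2 fold change was 2.32 ± 0.27 against blood CD8αhigh cells (edgeR adjusted p = 2.39e-06) and 1.36 ± 0.26 against liver CD8αhigh cells (adjusted p = 0.0009), with the smallest adjusted p of the members against blood. These calls were kept in each of 9 fits that left out a pig or a library, at 2.10 to 2.51 and at 1.23 to 1.51.

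*DTX3L* was at 39.6, 52.1, 49.1, 35.8 and 50.8 CPM in blood CD8αhigh, 57.0, 58.8, 35.1, 47.7 and 21.5 CPM in liver CD8αhigh and 56.5, 99.4, 112, 82.6 and 79.7 CPM in lrNK cells. All lrNK libraries were above all blood libraries, and that of pig 1 lay within the liver CD8αhigh range. The difference on the log2 scale was 0.92 ± 0.25 against blood CD8αhigh cells (edgeR adjusted p = 0.0135) and 0.97 ± 0.25 against liver CD8αhigh cells (adjusted p = 0.0115). It was highest in pig 3, where 9 of 15 effectors were lowest. *PARP9* gave 14.9, 40.3, 37.5, 26.0 and 21.1 CPM in blood CD8αhigh, 31.8, 27.9, 56.6, 39.8 and 30.6 CPM in liver CD8αhigh and 29.1, 65.3, 24.8, 68.8 and 65.0 CPM in lrNK cells. The groups overlapped: lrNK libraries of pigs 2, 4 and 5 were above all others, and those of pigs 1 and 3 were not. Its log2 fold change of 0.86 ± 0.33 against blood CD8αhigh cells (edgeR adjusted p = 0.0773) and 0.44 ± 0.33 against liver CD8αhigh cells (adjusted p = 0.447) did not pass the test. Against blood *PARP9* did pass in the blocked DESeq2 fit (0.90, adjusted p = 0.0459), and in edgeR without pig 3 (1.16, adjusted p = 0.0153) or without the lrNK library of pig 3 alone (1.04, adjusted p = 0.0181). *DTX3L* did not pass against blood without pig 4 (adjusted p = 0.066) or against liver CD8αhigh cells without pig 3 (0.0738) or pig 5 (0.0546). *PARP12*, a further ADP-ribosyltransferase of the module, had 0.30 ± 0.23 and 0.18 ± 0.23 (edgeR adjusted p = 0.416 and 0.71). Against blood *PARP12* did pass without the lrNK library of pig 3 alone (0.52, edgeR adjusted p = 0.0284).

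Set beside the 15 antiviral effectors, *PARP14* was placed in the upper part of the range against blood and in the lower part against liver CD8αhigh cells, and its partners were in the lower part in both comparisons. Against blood, 5 effectors had a larger log2 fold change than *PARP14*, and 10 had a larger one than *DTX3L* or *PARP9*. Against liver CD8αhigh cells these numbers were 9 for *PARP14*, 11 for *DTX3L* and 13 for *PARP9*. Thus *PARP14* and *DTX3L* rose in the same comparisons as the effectors and *PARP9* had positive values that did not pass. Between the 5 lrNK libraries the SD of *PARP14* on the log2 CPM scale was 0.401, against a median of 0.951 for the effectors (range 0.425 to 3.08) and 0.605 for all tested genes. *DTX3L* had 0.375 and *PARP9* 0.709. The highest effector values were those of *IFIT2* (3.08) and *XAF1* (2.08), which had few counts. Among effectors with more counts, *MX1* had 1.44, *IFI44L* 0.605 and *ADAR* 0.425. The part of counting noise in these spreads was not separated. Between the 5 blood libraries the SD of *PARP14* was 0.655 and the median effector's 0.623. Within each animal, *PARP14* of lrNK cells lay 2.19, 2.68, 1.61, 3.61 and 1.85 above that of blood (log2), and the median effector 1.28, 1.94, 0.63, 2.55 and 1.54. These spreads were not tested against each other.

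**Figure D3:**
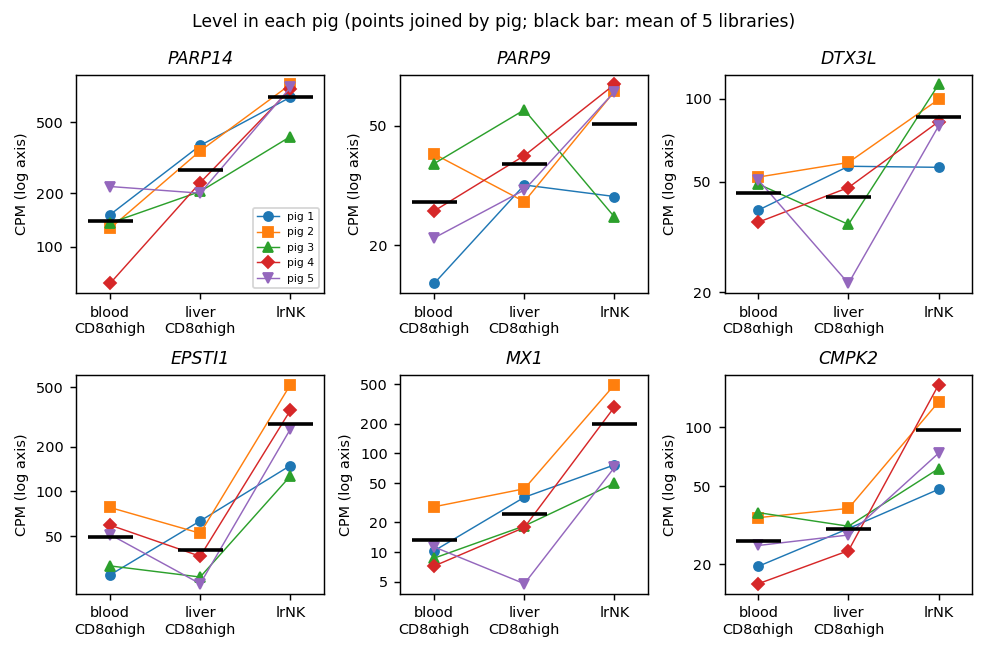
CPM (log axis) of *PARP14*, *PARP9*, *DTX3L* and the 3 effectors with the smallest adjusted p against blood (*EPSTI1*, *MX1* and *CMPK2*) in each population, with points joined by pig and black bars for the mean of 5 libraries. *PARP14* is higher in lrNK cells than in blood in each pig, *PARP9* of pig 3 is lower, and the lrNK points of *MX1* spread from 49.7 to 495 CPM.

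Levels of the members differed between animals. Among the lrNK libraries, that of pig 2 was highest in 19 and that of pig 4 in 8 of the 32 tested members, while that of pig 3 was lowest in 17. Pig 2 was also highest in 11 members in blood and in 15 in liver CD8αhigh cells, whereas blood of pig 4 was lowest in 14. The same counts were not made over all genes, so these numbers describe the members only. The lrNK libraries of pigs 2 and 3 were also the least deep, with 2003499 and 2012510 counts. The median effector lay 0.93, 2.40, 0.94, 2.29 and 1.35 above its blood mean (log2) in lrNK cells of pigs 1 to 5. *PARP14* lay 2.42, 2.66, 1.69, 2.57 and 2.60 above its blood mean in the same libraries. Within each animal, the median difference of the 32 members between lrNK and blood cells was 1.04, 1.71, 0.67, 1.88 and 1.10, so it was positive in all 5 pigs. The B-cell markers summed to 422, 940.3, 559, 966 and 419 CPM in these 5 lrNK libraries, so the libraries of pigs 2 and 4 were highest in both. In blood the largest B-cell sum was that of pig 3, at 154 CPM, and its median effector lay 0.11 above the blood mean. The part of B cells or of other admixed cells in the members' levels was not tested.

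**Figure D4:**
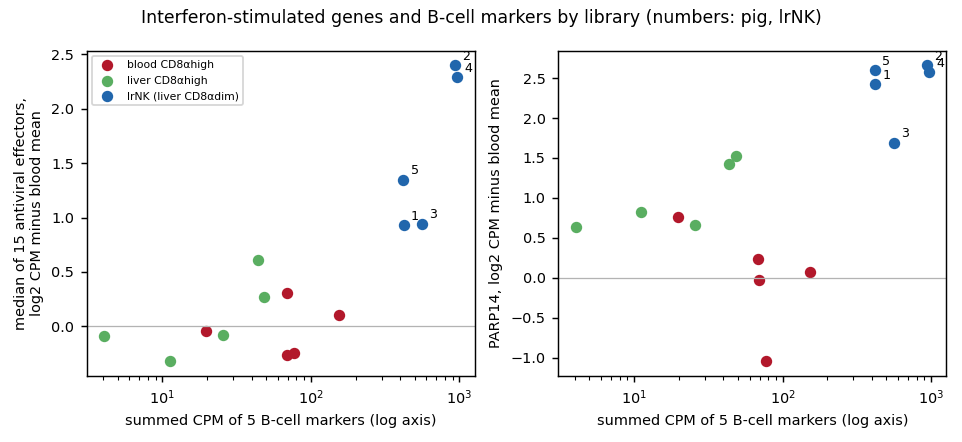
Median of the 15 tested antiviral effectors (left) and *PARP14* (right), each as log2 CPM minus the blood mean, against the summed CPM of 5 B-cell markers (log axis) in the 15 libraries, with lrNK points numbered by pig. Pigs 2 and 4 are highest on both axes at left, while *PARP14* of pigs 1 and 5 is near that of pigs 2 and 4 at B-cell sums of 422 and 419 CPM.

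Between liver and blood CD8αhigh cells, none of the 32 tested members passed the test. In edgeR 0 rose and 0 fell, and DESeq2 also called 0. Of the 32 members 1 (*PARP14*) had an unadjusted edgeR p under 0.05, as did 5.02% of all genes. Few genes were called in this comparison at all, 0.064% of those tested. The median log2 fold change of the members was 0.118 and that of all genes -0.0242. *PARP14* had the largest value of the members, 0.96 ± 0.26, and was higher in liver in 4 of 5 pigs, with an edgeR adjusted p of 0.483. Only DESeq2 with the pig as a block called it (0.97, adjusted p = 0.0111). *PARP9* had 0.42 ± 0.33 and *DTX3L* -0.05 ± 0.25. The median effector had 0.094.

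Some genes upstream of the module also differed. Of 14 tested receptor and signalling genes, 5 rose (35.7%) and 1 fell in lrNK cells against blood, where 8.62% of all genes rose and 9.60% fell, and 4 rose (28.6%) and 2 fell against liver CD8αhigh cells, where 6.96% and 7.68% did. *IFNAR2*, a chain of the type I interferon receptor, rose by 1.64 ± 0.24 (edgeR adjusted p = 3.11e-05) and its partner *IFNAR1* by 1.05 ± 0.26 (adjusted p = 0.00659). *JAK1*, a kinase bound to that receptor, rose by 1.33 ± 0.23 (edgeR adjusted p = 0.000265). *TYK2*, the other kinase named above, had -0.41 ± 0.22 against blood and did not pass (edgeR adjusted p = 0.212). Against liver CD8αhigh cells it had -0.30 ± 0.22 (edgeR adjusted p = 0.43). *IFNGR1*, a chain of the interferon-gamma receptor, rose against blood (1.03 ± 0.24, edgeR adjusted p = 0.00365). It did not pass against liver CD8αhigh cells (0.52 ± 0.23, edgeR adjusted p = 0.162). *PTPN6*, a phosphatase that dampens receptor signals, rose in both comparisons (0.91 ± 0.20 and 0.81 ± 0.20, edgeR adjusted p = 0.00278 and 0.00814). *PTPN2*, a phosphatase that acts on JAK1, fell by 0.89 ± 0.23 (edgeR adjusted p = 0.00944). *SOCS1*, an inhibitor of JAK kinases, had -0.76 ± 0.44 against blood (edgeR adjusted p = 0.263, or 0.0262 with the pig as a block) and fell by 1.59 ± 0.44 against liver CD8αhigh cells (adjusted p = 0.0159). *IRF1*, a transcription factor induced by interferon-gamma, did not pass (0.18 ± 0.15, edgeR adjusted p = 0.483).

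Transcripts of the interferons themselves were scarcely found. Of 10 ligand symbols 6 were in the table, *IFNB1*, *IFNE* and *IFNK* were at 0 in lrNK and blood cells, and only *IFNG* was tested (log2 fold change -0.78 ± 1.04, edgeR adjusted p = 0.683, at means of 1.29 CPM in lrNK, 2.45 CPM in blood and 6.40 CPM in liver CD8αhigh cells). *IFNG* had -2.18 ± 1.04 in lrNK against liver CD8αhigh cells, with lower values in all 5 pigs, and did not pass (edgeR adjusted p = 0.195). Of 12 tested genes of nucleic acid sensing 3 rose (25%) and 1 fell against blood, and 2 rose (16.7%) and 0 fell against liver CD8αhigh cells, beside the same shares of all genes. *DDX58*, which encodes RIG-I, rose by 1.55 ± 0.35 (edgeR adjusted p = 0.00326), *MB21D1*, the DNA sensor cGAS, by 1.93 ± 0.44 (adjusted p = 0.00321), and *TICAM1*, the adaptor of TLR3, by 1.53 ± 0.46 (adjusted p = 0.0234). *IRF5* fell by 1.10 ± 0.32 (edgeR adjusted p = 0.0185). Against liver CD8αhigh cells *DDX58* (1.23 ± 0.35, edgeR adjusted p = 0.0184) and *TMEM173*, the adaptor STING (1.32 ± 0.43, adjusted p = 0.0412), rose. There *MB21D1* (edgeR adjusted p = 0.0967), *TICAM1* (0.0691) and *IRF5* (0.0646) did not pass, although in the blocked fit *IRF5* did (edgeR adjusted p = 0.046) and *TMEM173* did not (0.0535).

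A further list of 39 interferon-stimulated genes outside the module gave a share between that of the members and that of all genes. Of its 22 tested genes, 9 (40.9%) rose and 0 fell against blood, and 7 rose (31.8%) and 0 fell against liver CD8αhigh cells. With the pig as a block, 8 rose and 0 fell in each of these comparisons. *DDX60*, a helicase that assists RIG-I, rose by 2.43 ± 0.40 (edgeR adjusted p = 0.000144). *TNFSF10*, the death ligand TRAIL of NK cells, rose by 1.29 ± 0.23 (edgeR adjusted p = 0.000391), and *CNP*, a phosphodiesterase, by 1.23 ± 0.20 (adjusted p = 0.000163). *ISG20*, a nuclease of single-stranded RNA, averaged 36.8 CPM in lrNK cells and was at 0 in all 5 blood libraries. The chemokine genes *CXCL9* and *CXCL11*, targets of interferon-gamma, and *SIGLEC1*, a macrophage gene, were at 0 in blood and lrNK cells. The related *CXCL10* was at 0 in blood, averaged 1.37 CPM in lrNK cells and was not tested.

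Of 9 tested PARP genes outside the module, 1 rose against blood (*TIPARP*, 1.09 ± 0.28, edgeR adjusted p = 0.00882, with 8.62% of all genes) and 1 fell (*PARP8*, -0.88 ± 0.21, adjusted p = 0.00587, with 9.60% of all genes). Against liver CD8αhigh cells 1 rose (*PARP11*, 0.73 ± 0.21, edgeR adjusted p = 0.0241) and 0 fell. With the pig as a block, 1 of these PARP genes rose and 1 fell against liver CD8αhigh cells. Of 3 tested deltex genes *DTX4* fell by 3.88 ± 0.38 (edgeR adjusted p = 1.92e-07) and none rose. Of the 12 genes that lie within 250 kb of *PARP14*, itself included, 6 that are no members were tested. Of these *WDR5B* rose against blood (1.02 ± 0.31, edgeR adjusted p = 0.0257), while *DIRC2*, *HSPBAP1*, *KPNA1* and 2 uncharacterized genes did not pass.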

How the data were processed

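The authors sorted the 3 NK cell populations of 5 pigs, prepared libraries with the QuantSeq 3′ kit, trimmed reads with QuasR, aligned them with Rhisat2 (HISAT2 in the submitters' processing notes) to Sscrofa11.1 and deposited whole-number counts per gene without normalization. The counting tool and its strand setting are not given in the sources used here, so overlapping genes are uncertain. Each of the 15 columns was tied to its library through the sample description, which left 0 columns over. Totals of 2003499 to 5680221 counts per library limit the precision of genes with few counts, and an undetected gene may have up to 3 counts.

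Counts were tested with edgeR 4.0.16 in R 4.3.3 (TMM, default filter on low counts by population, quasi-likelihood test, 15 libraries in a single fit), with Benjamini-Hochberg adjustment over the 10939 genes tested and a threshold of 0.05. Standard errors are the log2 fold change divided by the square root of F. Log2 CPM used a prior count of 2. Gene coordinates come from a RefSeq table of Sscrofa11.1, which placed all 37 members. Promoter and protein sequences were not used here. Levels per library are given for the 15 members with the smallest adjusted p among those that passed in any comparison and for *PARP14*, *PARP9* and *DTX3L*. Other pathway and marker genes are given as counts per list with examples, and some were named after their values were seen. A few listed genes were left out of the lists and the text. The members and lists were chosen with earlier results of these data known.

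Libraries are paired by animal, as the labels (donor number) and the methods state. Libraries of 1 pig deviated from their population means with a mean correlation of 0.107 over 15 pairs (range -0.0191 to 0.193), against -0.0265 between pigs. The study's methods state no pairing term, so a blocked fit, with the pig as the block, is an alternative. Other alternatives were DESeq2 1.42.0 with and without the block, its size factors in edgeR, no filter and a filter of 10 counts, robust dispersion, a fit of the 2 populations compared, a threshold of 0.01, a prior count of 0.5, and leaving out each pig. Leaving out single lrNK libraries of pigs 2, 3 and 4 or blood of pig 4 was added after seeing the data. No 2 libraries of a population agreed within sampling noise (chi-square per degree of freedom 9.41 to 46.7 over 30 pairs). Plots were made in matplotlib 3.10.9 under Python 3.11.15.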

Additional observations from a re-analysis of the deposited data

Results flagged for a closer look

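In 8 of 96 groups of 5 libraries (32 members in 3 populations), 1 library stood apart from the other 4 by Dixon's criterion, which flags about 1 in 20 groups by chance. In lrNK cells, pig 2 was high for *USP18* (68.6 CPM, others 19.9 to 30.9) and *PML* (232 CPM, others 132 to 161). In the same population, pig 3 was high for *OAS2* (48.7 CPM, others 7.05 to 18.2) and *GBP2* (246 CPM, others 75.2 to 123) and low for *PARP12* (44.3 CPM, others 107 to 129). In blood, pig 2 was high for *MX1* (28.8 CPM, others 7.23 to 11.3), pig 1 was high for *GBP2* (175 CPM, others 116 to 132), and pig 4 was low for *IFIH1* (22.8 CPM, others 76.1 to 89.4). None was found in liver CD8αhigh cells.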

How the results depend on the processing

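With the pig as a block, 19 members rose against blood (median log2 fold change 1.21) and 17 against liver CD8αhigh cells (1.25), where 1 (*GBP1*) fell and *ISG15* did not pass. In edgeR the block changed no other call of a member. In DESeq2 with the block, 21 members rose against blood, with *PARP9* and *DHX58* gained, and *ISG15* did not pass against liver CD8αhigh cells. Besides, 1 member, *GBP1*, fell against liver CD8αhigh cells in DESeq2, in DESeq2 with the block, and without pig 3, the lrNK library of pig 3 or the blood library of pig 4, and against blood without the lrNK library of pig 3. Against liver CD8αhigh cells 19 members rose in DESeq2, which called *MX2* as well, and 19 without a filter on low counts. Leaving out pigs or libraries gave 16 to 21 members higher and 0 to 1 lower against blood, and 16 to 19 higher and 0 to 1 lower against liver CD8αhigh cells. At an adjusted p under 0.01, 1199 genes passed against blood, 947 against liver CD8αhigh cells and 0 between the CD8αhigh populations, in place of 1993, 1601 and 7. The 1601 became 1051 to 1764 with a pig or library left out, with the lowest without pig 5. The 7 became 18 without a filter on low counts, 24 in DESeq2, 4 with robust dispersion, 16 in a fit of the 2 populations, 175 in DESeq2 with the block, where 1 member (*PARP14*) rose, and 0 to 12 with a pig or library left out. The cause was not tested.

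Alternatives were compared for all 32 tested members against blood and liver CD8αhigh cells, but between the CD8αhigh populations only for *PARP14*, *PARP9* and *DTX3L*. Of these, signs turned in 6 members against blood or liver CD8αhigh cells and in *DTX3L* between the CD8αhigh populations (-0.196 to 0.18 with a pig or library left out), none of which passed the test there. Against blood, *GBP2* had 0.00258 with DESeq2's size factors, 0.00483 with a filter of 10 counts, 0.00307 in DESeq2 and -0.358 to 0.254 with a pig or library left out, and *XAF1* had -0.0148 in DESeq2 with the block. With a pig or library left out, *OAS2* ran from -0.539 to 0.681, *TRIM25* from -0.126 to 0.156 and *TRIM21* from -0.392 to 0.304. Against liver CD8αhigh cells *IRF9* ran from -0.134 to 0.65, *GBP2* from -0.28 to 0.264 and *TRIM21* from -0.546 to 0.287. Over these values and 3 mean differences of all members, 1059 kept their direction and side of the threshold, 15 gained a call, 25 lost one and 28 turned.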
